A study of Homo sapiens with 8 samples.

Results

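The comparison described here is the effect of the Hsp70 inhibitor JG-98 that was common to both MCF-10A lines of the series. It set the 4 treated libraries against the 4 untreated ones, with the line as a block, over all expressed genes. All 8 libraries of the series entered it, and 17693 of the 60617 genes in the count table had enough counts to be tested. MCF-10A is an established, non-tumorigenic human breast epithelial line. It was used as cells labelled Empty and cells labelled NeuT, and the labels do not say what either carries or whether it is 1 clone. Each line was either left without treatment or given JG-98 at 1 µM for 12 h, with 2 libraries in each of the 4 groups, and no vehicle is named for the untreated cells. All cells grew in the same medium with horse serum, epidermal growth factor, hydrocortisone, insulin and cholera toxin. The series asked how sensitive transformed cells are to the drug, and its title names the kinase HRI, the translation factor eIF2α and the Hsp70-Bag3 module.

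Hsp70 proteins are ATP-driven chaperones that bind exposed hydrophobic stretches of unfolded proteins. JG-98 binds them outside the substrate site and interferes with their nucleotide exchange factors, among them the BAG proteins. Phosphorylation of eIF2α by one of its kinases (HRI, PERK, GCN2 or PKR) slows general translation while that of the transcription factor ATF4 rises. ATF4 and its partners then induce genes for amino acid supply, tRNA charging and stress signalling, a programme called the integrated stress response (ISR). A separate programme, the heat shock response, is driven by HSF1 and induces the chaperones themselves.

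Total counts lay between 55050996 and 56861971, except for 37341458 in the first treated Empty library. The first principal component held 86.4% of the variance of the log2 values and separated the lines. The second held 6.31%, and the 4 treated libraries had scores of -11.2 to -3.13 on it against 3.08 to 8.55 for the untreated ones. The second treated NeuT library stood apart at -11.2, and its replicate lay at -3.13. All 17 epithelial and basal markers were expressed, with a summed level of 35600 to 50600 CPM, the count scaled to library size. The 10 luminal markers (3 under 1 CPM in every library, ELF5 at 0) summed to 3270 to 3300 CPM in untreated and 3380 to 3410 in treated Empty, and to 4060 to 4230 against 3740 to 3930 in NeuT. The sums moved opposite ways in the lines, the 7 members tested had shared log2 fold changes of -0.24 to -0.02, and their part in the results was not tested. Of the markers of other cells, 7 of 8 for leukocytes were under 1 CPM in every library (HLA-DRA at 0), with summed levels of 5.60 to 12.5 CPM. For endothelium 4 of 6 were under 1 CPM, with sums of 9.27 to 18.1. For fibroblasts 6 of 9 were under 1 CPM, but the list summed to 80.5 to 86.0 CPM in Empty and 159 to 175 in NeuT, with and without the drug. The labels do not say whether the 2 libraries of a group came from separate cultures, so p-values measure only the spread between these libraries. In RNA from whole cultures, fewer cells of a kind and less RNA per cell cannot be told apart.

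JG-98 changed 520 genes in the direction shared by both lines, 2.94% of those tested. A gene is described as called, and as having risen or fallen, where its edgeR quasi-likelihood p-value adjusted over all 17693 genes was under 0.05. Of the 520 genes, 314 rose (1.77% of those tested) and 206 fell (1.16%). The rises were the larger changes. Their median log2 fold change was 0.35 against -0.24 for the falls, and 44 rises but 11 falls exceeded 1 on the log2 scale. Treated and untreated libraries did not overlap in either line for 312 of the 314 rises and 205 of the 206 falls. Over all genes tested the same separation was met by 7.13% upwards and 7.83% downwards. The called genes were well expressed, with a median of 1870 counts per library for the rises and 3440 for the falls, against 618 for all genes. Protein-coding genes made up 287 of the 314 rises and 193 of the 206 falls, against 13220 of the 17693 tested. Their median exonic length was 4780 bases for the rises and 5020 for the falls, against 4270 for all genes tested. Counts depended on single libraries: without the first untreated NeuT library 196 genes were called and without the second 202, against 709 without the second treated NeuT library. Without an untreated Empty library the count was 319 or 324.

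All 520 called genes moved the same way in both lines, as the additive model favours, against 57.3% of all genes tested. The change was larger in NeuT for 393 of them, and the median rise was 0.28 in Empty and 0.42 in NeuT. In the contrasts of single lines, 60 genes were called in Empty (0.339%) and 533 in NeuT (3.01%). Of the 520, 42 were called in both lines, 287 in NeuT only, 7 in Empty only and 184 in neither line alone. The difference between the lines itself was called for 1 gene by edgeR (0.00565%), the arrestin-like gene TXNIP, which was not among the 520. For those 520 genes, none was called for the difference by edgeR. An unadjusted edgeR p under 0.05 for the difference was met by 92 of the 520. It was met by 1378 of all 17693 genes tested, a smaller share than among the 520. For the 520 genes DESeq2 called 5 for the difference and limma-voom 0. Without the filter on low counts edgeR called 25 of them for the difference, and with the replicate number as a block 5. Among refits that left out 1 library, the count of genes called for the difference changed most without a treated NeuT library. Such a fit has 1 library in that group, so its spread comes from the other groups, and its counts are not read further.

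**Figure D1:**
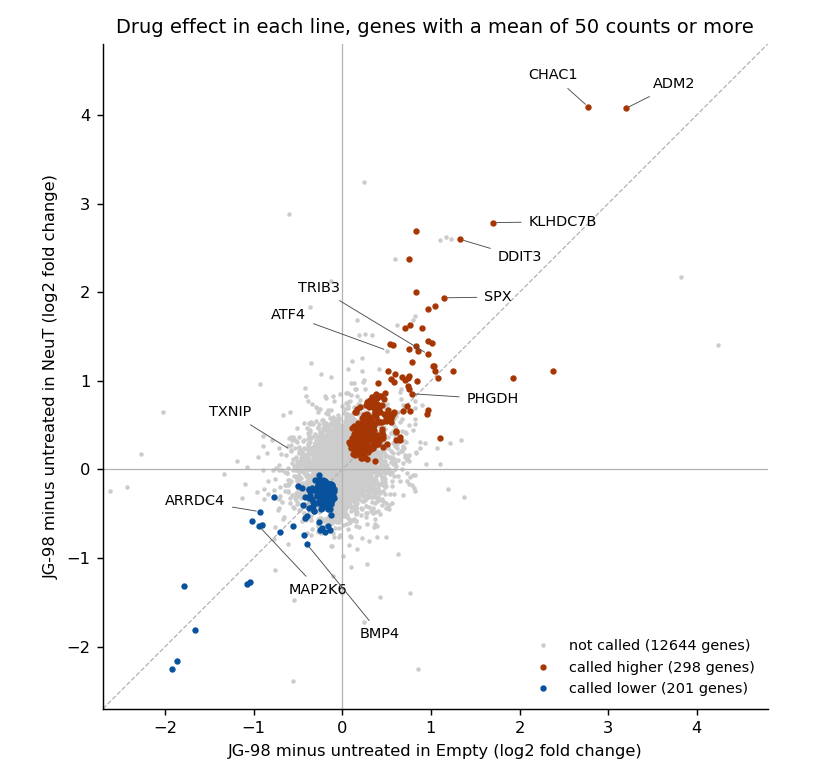
Log2 fold change with JG-98 in Empty (x axis) and NeuT (y axis) for the 13143 genes with a mean of 50 counts or more, of which 3 lie outside the axes. Points are genes, coloured where called for the shared effect (298 higher, 201 lower), and the dashed line marks equal change. The called genes lie in the upper right and lower left, and most of the rises lie above the dashed line.

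Among genes averaging 50 counts or more, ADM2 and CHAC1 rose most, and both belong to the ISR. ADM2 encodes a secreted peptide of the calcitonin family and is a known ATF4 target. It was at 0.194 and 0.281 CPM in untreated Empty, 2.49 and 1.94 in treated Empty, 0.384 and 0.39 in untreated NeuT, and 5.00 and 8.11 in treated NeuT. Every treated library exceeded every untreated one, and the shared change was 13.2-fold (log2 fold change 3.72 ± 0.24 SE, edgeR adjusted p = 3.9e-07).

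CHAC1, an enzyme that breaks down glutathione, rose 11.5-fold (log2 3.52 ± 0.40, edgeR adjusted p = 0.0159). Its levels were 2.04 and 1.402 CPM in untreated Empty and 13.9 and 9.96 in treated Empty. In NeuT they were 2.36 and 2.32 without and 28.2 and 51.6 with the drug. All 4 treated libraries were higher than all untreated ones, but the call was lost without the second untreated Empty, the first treated Empty or either untreated NeuT library (edgeR adjusted p of 0.0606 to 0.0948).

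Other large rises were in genes of varied function. KLHDC7B, a kelch-domain gene, rose 5.33-fold (log2 2.42 ± 0.27, edgeR adjusted p = 1.2e-04) from 0.123 to 0.557 CPM across the untreated libraries. In treated cells it was at 0.551 and 0.75 CPM in Empty and 3.07 and 4.57 in NeuT, so the groups were separate within each line but not across them. SPX, which encodes the peptide hormone spexin, rose 3.16-fold (log2 1.66 ± 0.20, edgeR adjusted p = 0.001). Both lines moved, SPX from 0.617 and 1.02 to 2.28 and 1.43 CPM in Empty, and from 2.69 and 3.54 to 10.9 and 12.97 in NeuT. The potassium channel gene KCNJ12 and the noncoding LINC01138 rose by 1.55 and 1.65 on the log2 scale. The call of KCNJ12 was lost without the first untreated Empty, the first treated Empty, the first untreated NeuT or the first treated NeuT library (edgeR adjusted p of 0.0562 to 0.124). That of LINC01138 was lost without the first untreated NeuT library (edgeR adjusted p = 0.0546).

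**Figure D2:**
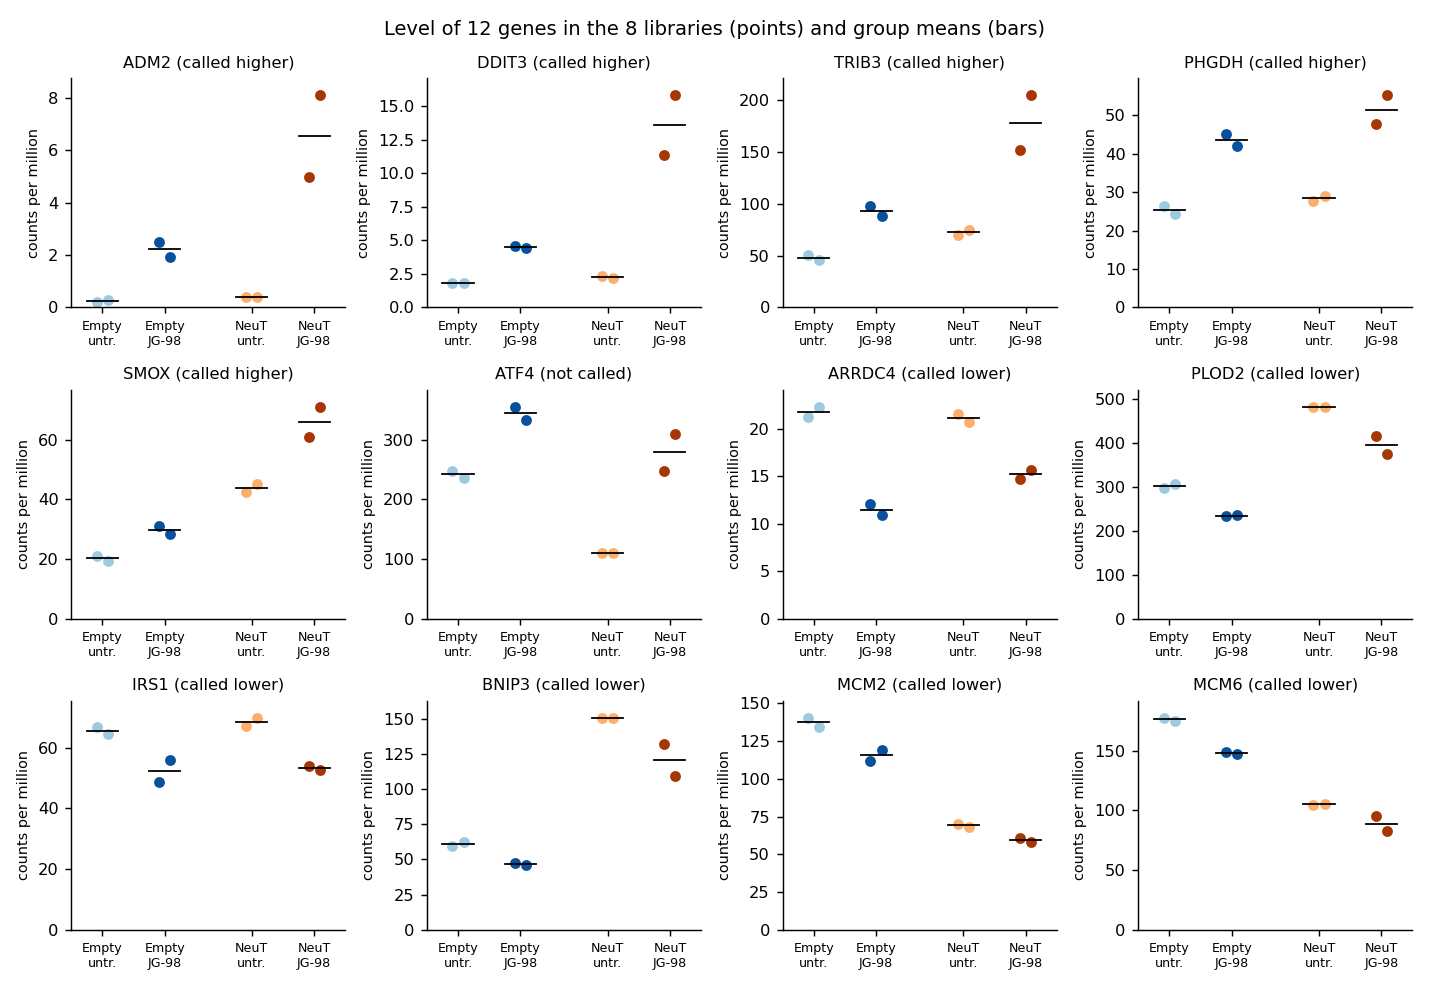
Level in CPM (y axes, linear from 0) of 12 genes in the 8 libraries, grouped on the x axis by line and treatment. Points are libraries and bars are group means. The first 5 genes were called higher, ATF4 was not called although every treated library exceeded the untreated ones of its own line, and the last 6 were called lower with non-overlapping groups within each line. Non-overlap was a condition of choice for ARRDC4, PLOD2, IRS1 and BNIP3.

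Of 10 transcription factors of the ISR, 4 rose and 1 fell, with a median log2 fold change of 0.70 against -0.0017 for all genes. DDIT3, which encodes the pro-apoptotic factor CHOP, was at 1.80 and 1.79 CPM in untreated Empty and 4.62 and 4.42 in treated Empty. In NeuT it was at 2.32 and 2.17 without and 11.4 and 15.8 with JG-98. All treated libraries were above all untreated ones, and the shared rise was 4.06-fold (log2 2.02 ± 0.26, edgeR adjusted p = 0.0063). Reads over 39.6% of its exonic length could also belong to another annotated gene. JDP2, an AP-1 repressor, rose 2.08-fold (log2 1.06 ± 0.12, edgeR adjusted p = 3.7e-04), from 8.04 to 9.21 CPM across the untreated libraries to 14.1 to 23.8 across the treated ones. ATF3, a stress-induced factor that feeds back on the response, rose 1.82-fold (log2 0.87 ± 0.12, edgeR adjusted p = 0.0023). NFIL3, a bZIP repressor, rose by 0.25 and ATF5, a factor itself translated under eIF2α phosphorylation, fell by 0.24 on the log2 scale. The call of NFIL3 was lost without any library but the second treated one of each line (edgeR adjusted p of 0.0735 to 0.151). That of ATF5 was lost without the second treated Empty or either untreated NeuT library (edgeR adjusted p of 0.0655 to 0.116), and 22.1% of its exonic length is shared with another gene.

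ATF4 itself was higher in the treated libraries of both lines but was not called for a shared change. Its level was 249 and 237 CPM in untreated Empty and 356 and 334 in treated Empty. In NeuT it was at 110 and 111 without and 249 and 310 with the drug. The groups did not overlap within a line, and the lower of the treated NeuT libraries was at the level of untreated Empty. The fold change was 1.89 (log2 0.92 ± 0.20, edgeR adjusted p = 0.0954). The line values were 0.51 in Empty and 1.34 in NeuT, each called in its line contrast (edgeR adjusted p of 0.0157 and 1.7e-06). Their difference had an edgeR adjusted p of 0.0579. ATF4 was called by the same additive edgeR model without robust estimation (adjusted p = 0.0011), by DESeq2 (adjusted p = 2.4e-04) and by limma-voom (adjusted p = 0.0013). It was also called by an edgeR model with a coefficient for each group, which tests the mean of the line changes (adjusted p = 9.8e-07). Under that group model 702 genes were called, 514 of them among the 520. CEBPG, a partner of ATF4, and NUPR1, a stress-induced cofactor, both named after their values were seen, had log2 fold changes of 0.54 and 1.87 and were not called either (edgeR adjusted p of 0.0633 and 0.0688). Both were called in the same 4 alternatives as ATF4, NUPR1 with adjusted p-values of 3.9e-06 to 3.7e-04 and CEBPG with 0.0011 to 0.0076. CEBPG was called too without the filter on low counts and with total counts (edgeR adjusted p of 0.0013 and 0.0454). CEBPB, another C/EBP factor, was at 0.15 (edgeR adjusted p = 0.0896), and was called without the filter (edgeR adjusted p = 0.0336). In these 4 alternatives 7 of the 10 factors were called higher in place of 4, and 6 without the filter.

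Of the rising genes with a promoter sequence at hand, 25 of 235 had the C/EBP-ATF response element, the composite site bound by ATF4 or CHOP with a C/EBP partner, in the window searched around a start site. The letters TGATGNAA were searched on both strands in 300-base windows from 250 bases before to 50 after each RefSeq start (GRCh38.p14). These were 235 of the 314 rises, and 156 of the 206 falls had a sequence. The element was in 6.81% of 367 windows of the rises, in 11.1% of 117 windows of rises over 0.5 on the log2 scale, and in 0.957% of 209 windows of the falls. Its share was 2.15% in windows of all tested genes and 3.62% in all 35116 windows. Counted by gene, as for the 25 of 235 rises, it was in 2 of 156 falls and in 340 of 11651 tested genes. Matches before the start are printed for 7 rising genes, chosen after their values were seen so that the letters can be read beside the rises described here. Each run is read 5′ to 3′ on the strand of the gene, and capitals mark the match, which is TGATGNAA or its reverse complement.
ATF3, chr1:212565205-212565234, plus strand: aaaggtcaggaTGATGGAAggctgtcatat
ASNS, chr7:97872458-97872487, minus strand: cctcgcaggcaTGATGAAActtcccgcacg
JDP2, chr14:75427995-75428021, plus strand: atagccggggcTGATGCAAcccgtccc
CHAC1, chr15:40953251-40953280, plus strand: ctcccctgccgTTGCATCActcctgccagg
HERPUD1, chr16:56931955-56931984, plus strand: gacgcggcgggTTGCATCAgcccgtgccca
AARS1, chr16:70289675-70289704, minus strand: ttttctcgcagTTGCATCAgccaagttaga
KLHDC7B, chr22:50545737-50545766, plus strand: gtttctggtgaTTTCATCAgggccacatca
The first base of each match lies between 16 bases (JDP2) and 209 bases (CHAC1) before the start. The heat shock element GAANNTTC was in 4.09% of the windows of the rises, 5.98% of those of rises over 0.5, 0.957% of those of the falls and 5.02% of those of all tested genes. For the antioxidant response element TGACNNNGC these shares were 18.0%, 21.4%, 19.6% and 14.4%. The ER stress element, in 0.107% of the windows of all tested genes, was in 1 window of the rises and 1 of the falls. These matches are descriptions of the letters in the windows, and no binding was measured.

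Among the effectors and feedback genes of the ISR, 12 of 18 rose and none fell (median log2 0.44). TRIB3, a pseudokinase that restrains ATF4 and AKT signalling, was at 45.5 to 74.7 CPM across the untreated libraries and at 88.6 to 204 across the treated ones. These ranges did not overlap, and the rise was 2.20-fold (log2 1.14 ± 0.11, edgeR adjusted p = 0.0030). The translation repressor EIF4EBP1 changed by nearly the same amount in both lines, 0.28 in each (shared 0.28 ± 0.04, edgeR adjusted p = 5.9e-04). XPOT, the exporter of tRNA from the nucleus, rose by 0.32, and PMAIP1, which encodes the BH3-only protein NOXA, by 0.56. PPP1R15A, the phosphatase subunit that reverses eIF2α phosphorylation, rose 1.88-fold (log2 0.91 ± 0.14, edgeR adjusted p = 0.0237). Its call was lost without either untreated Empty library, the first treated Empty library or either untreated NeuT library (edgeR adjusted p of 0.0617 to 0.108), or without the filter on low counts (edgeR adjusted p = 0.0573). VLDLR, a lipoprotein receptor, rose by 0.45, and lost its call without the first untreated NeuT library (edgeR adjusted p = 0.0577). The count of 12 fell to 4 and 5 without the first and second untreated NeuT library. It was 6 without the second untreated or the first treated Empty library.

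Of 10 secreted factors of the ISR, ADM2 among them, 6 were called higher and none lower (median log2 1.13, and 0.55 over the fewer genes with at least 10 counts in every library). GDF15, a circulating stress hormone, was at 25.8 to 27.0 CPM in the untreated libraries of both lines. It reached 61.4 and 48.9 CPM in treated Empty and 88.6 and 101 in treated NeuT. No treated library came near the untreated range, and the shared rise was 2.73-fold (log2 1.45 ± 0.19, edgeR adjusted p = 0.0213). The change was 1.05 in Empty and 1.85 in NeuT, the difference with the smallest p among the 520, but not past the threshold (edgeR adjusted p = 0.122). Leaving out the second untreated Empty, the first treated Empty, either untreated NeuT or the first treated NeuT library ended the call for the shared effect (edgeR adjusted p of 0.0523 to 0.0902). INHBE and FGF21 were called from very few counts, a mean of 13.8 and 6 a library, and FGF21 was at 0 in both untreated Empty libraries. The call of FGF21 was lost without any library but the first treated one of each line (edgeR adjusted p of 0.0617 to 0.078). The chemokine CXCL8 rose by 0.54 ± 0.10 (edgeR adjusted p = 0.0142). Its call was lost without the first treated Empty or either untreated NeuT library (edgeR adjusted p of 0.0556 to 0.0809). The count of 6 was 2 without either untreated NeuT library, 3 without the second untreated or first treated Empty library, and 4 without the first untreated Empty or first treated NeuT library.

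**Figure D3:**
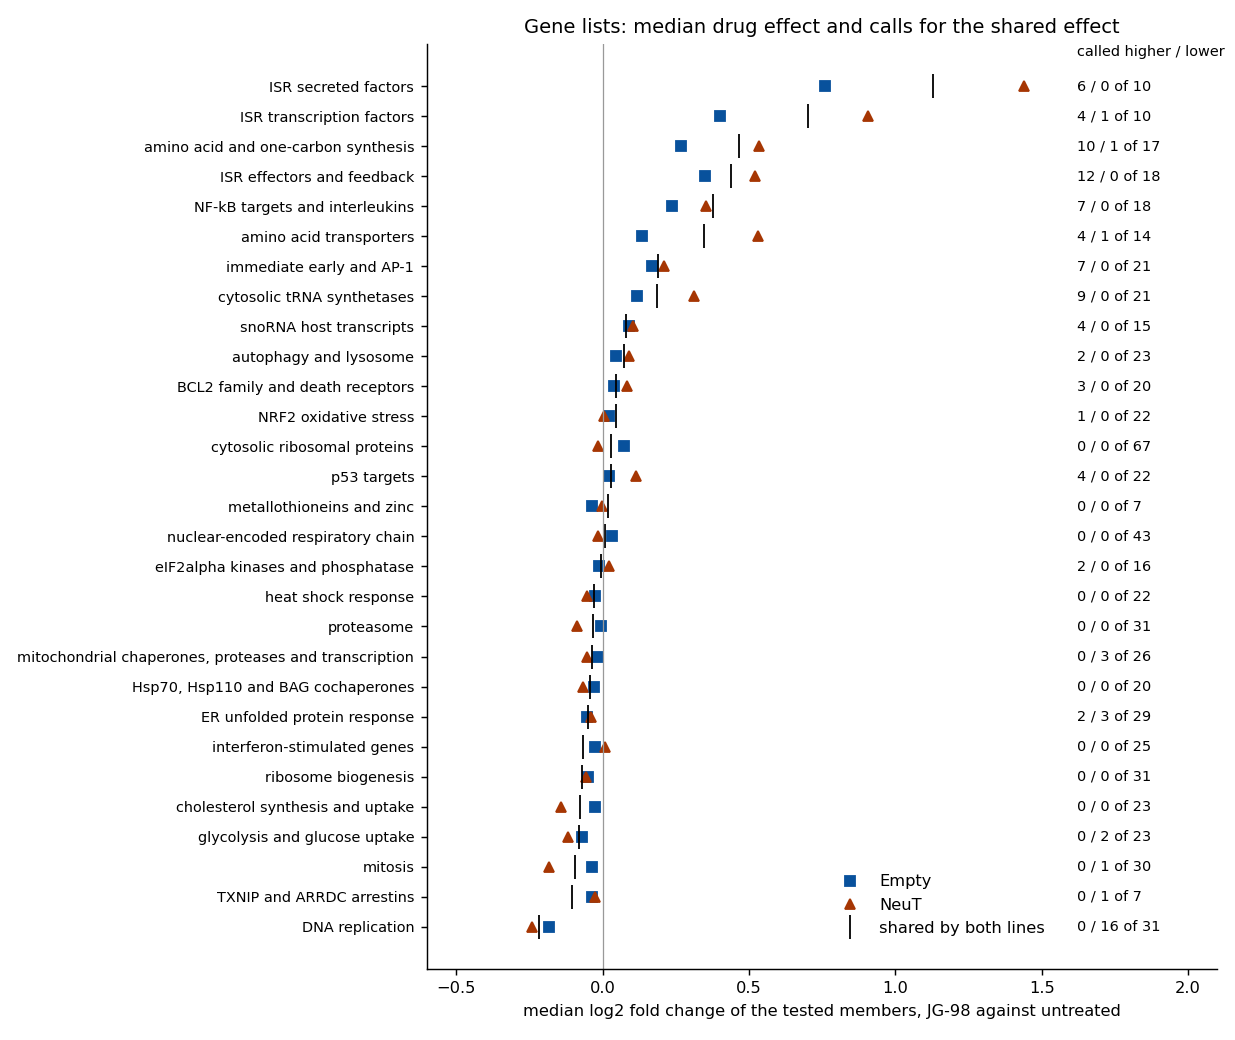
Median log2 fold change of the tested members of 29 gene lists (x axis) in Empty (squares), in NeuT (triangles) and shared by both lines (bars), with the number called higher and lower for the shared effect at the right. The ISR, amino acid and tRNA synthetase lists lie to the right of 0, DNA replication lies lowest at -0.22, and the heat shock, Hsp70 and proteasome lists lie near 0 with no call.

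Of 17 genes of amino acid synthesis and folate-linked carbon metabolism, 10 rose and 1 fell (median log2 0.47). PHGDH, the first enzyme of serine synthesis, was at 26.3 and 24.4 CPM in untreated Empty and at 45.2 and 42.0 in treated Empty. In NeuT its level went from 27.9 and 29.1 to 47.8 and 55.2 CPM. The replicates of each group were close and the change was nearly equal in both lines, 0.78 and 0.85 (shared 0.82 ± 0.06, 1.76-fold, edgeR adjusted p = 8.8e-07). PSAT1, the next enzyme of that pathway, rose by 0.78 ± 0.09 (edgeR adjusted p = 0.0018). The mitochondrial enzyme SHMT2, which turns serine into glycine, rose by 0.31 and the transaminase GPT2 by 0.47. ASNS, asparagine synthetase, was counted at only 0.128 to 0.333 CPM in untreated cells and 0.818 to 1.55 in treated cells. Its shared rise was 5.57-fold (log2 2.48 ± 0.33, edgeR adjusted p = 4.8e-04), from a mean of 34.2 counts a library, and 49.3% of its exonic length is shared with another gene. CTH, which makes cysteine from cystathionine, rose by 1.38 ± 0.25 (edgeR adjusted p = 0.0414). It moved by 0.83 in Empty and 1.997 in NeuT, and its call was lost without the second untreated Empty, first treated Empty, either untreated NeuT or first treated NeuT library (edgeR adjusted p of 0.0709 to 0.118), or without the filter (edgeR adjusted p = 0.0675). The fall was in ALDH18A1, an enzyme of proline synthesis (log2 -0.19 ± 0.04, edgeR adjusted p = 0.0210), and its call was lost without the second untreated Empty or either untreated NeuT library (edgeR adjusted p of 0.0615 to 0.123).

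Of 14 amino acid transporters, 4 rose and 1 fell. The glutamine carrier SLC1A5 rose by 0.39 ± 0.06 (edgeR adjusted p = 0.0023), and SLC3A2, the shared heavy chain of several exchangers, by 0.40 ± 0.07 (edgeR adjusted p = 0.0089). The call of SLC3A2 was lost without the first treated Empty library (edgeR adjusted p = 0.0639). The glycine transporter SLC6A9 rose by 1.19, a call that was lost without the second untreated Empty, first treated Empty, either untreated NeuT or first treated NeuT library (edgeR adjusted p of 0.088 to 0.138), or without the filter on low counts (edgeR adjusted p = 0.0893). SLC38A2, a neutral amino acid transporter, rose by 0.19, and lost its call without an untreated library of either line or the second treated Empty one (edgeR adjusted p of 0.0642 to 0.184). SLC7A6 fell by 0.27, with 55.6% of its exonic length shared with another gene, and was called only when no library or the second treated one of a line was left out (edgeR adjusted p of 0.0509 to 0.0895 otherwise). SLC7A11, the cystine importer, went from 11.3 and 12.8 to 28.6 and 28.1 CPM in Empty and from 14.4 and 11.7 to 63.4 and 95.0 CPM in NeuT. The treated libraries stood clear of all untreated ones, but the robust additive fit did not call it (log2 1.94 ± 0.35, edgeR adjusted p = 0.0629). The additive edgeR fit without robust estimation, DESeq2, limma-voom and the edgeR model with a coefficient for each group did (adjusted p of 2.0e-04, 1.9e-06, 1.8e-04 and 0.0017). In the first 3 of these 7 of the 14 transporters were called higher, and 9 in the last. Without the second treated NeuT library 7 transporters were called higher in place of 4, and 2 without the second untreated Empty, the first treated Empty or either untreated NeuT library.

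The cytosolic tRNA synthetases, which load amino acids onto tRNA, did not all pass the test. Of 21 tested, 9 rose and none fell (median log2 0.19). SARS1, the seryl enzyme, was at 177 and 172 CPM in untreated Empty and 226 and 206 in treated Empty. In NeuT it went from 201 and 205 to 251 and 268 CPM, so treated and untreated libraries were apart in each line. The rise was 0.33 ± 0.04 (edgeR adjusted p = 3.7e-04), with 0.31 in Empty and 0.35 in NeuT. YARS1, AARS1 and GARS1 rose by 0.42, 0.50 and 0.52 (edgeR adjusted p of 9.6e-04, 0.0014 and 0.0021). The count of 9 was 8 to 10 when any 1 library was left out.

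**Figure D4:**
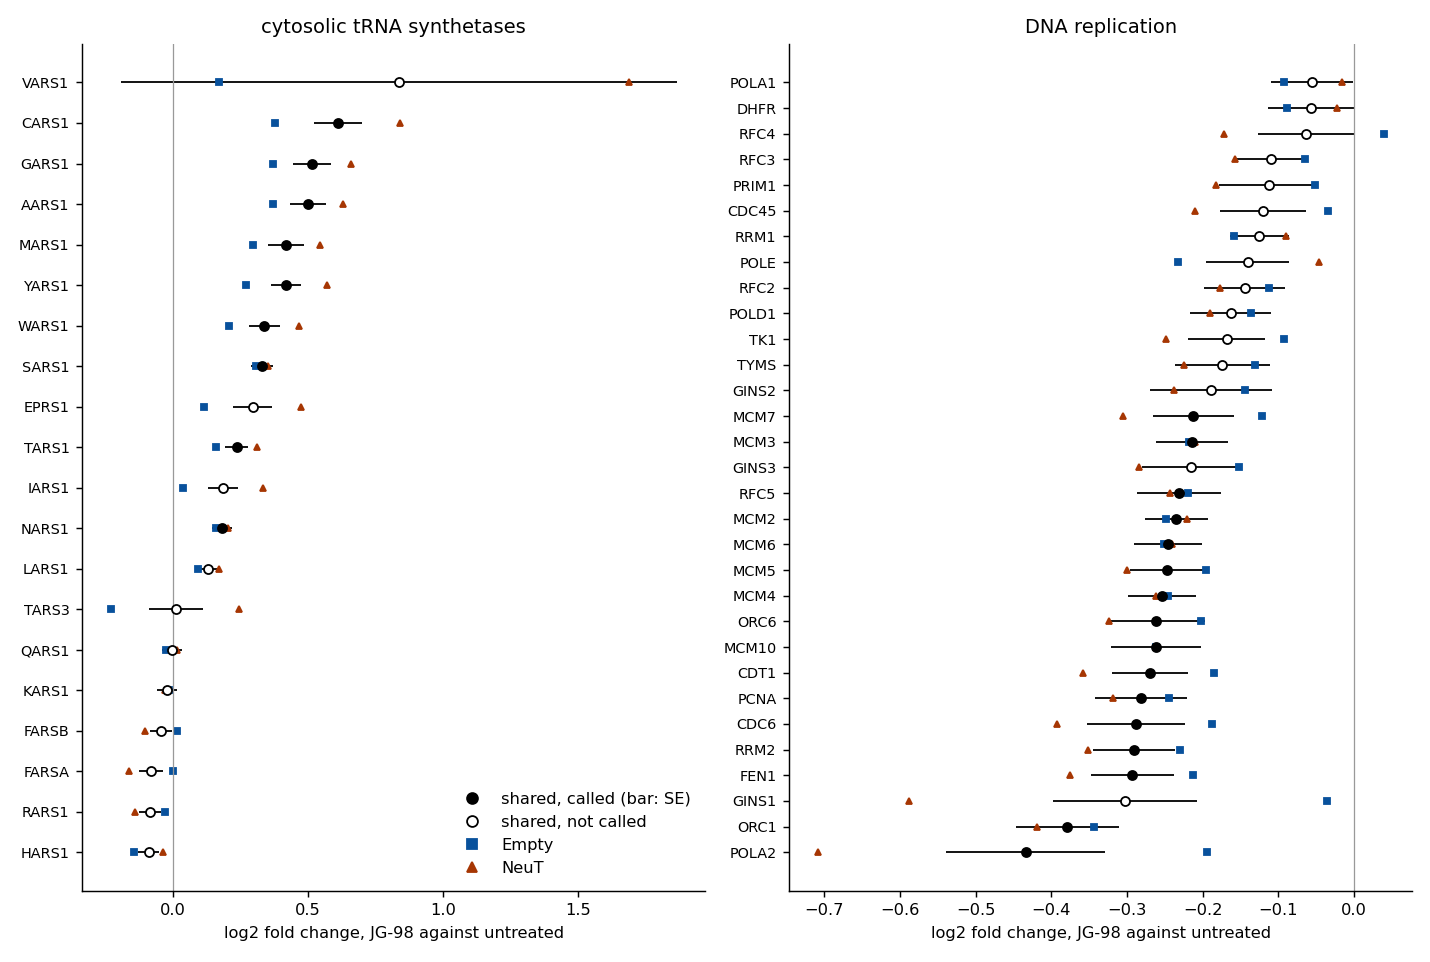
Log2 fold change with JG-98 (x axes) of cytosolic tRNA synthetases (left, 20 of the 21 tested) and of the tested DNA replication genes (right), sorted by the shared value. Circles are the shared change with its standard error, filled where called, squares are Empty and triangles NeuT. All 9 called synthetases lie right of 0, VARS1 has a wide error, and the 31 replication genes all have a shared value below 0.

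Few genes of the upstream machinery of the response were called. Of 16 genes for eIF2α kinases, eIF2 and eIF2B subunits and phosphatase parts, 2 rose, PPP1R15A and EIF2S2, the beta subunit of eIF2 (0.24 ± 0.04, edgeR adjusted p = 0.0047). Without an untreated library of either line or the first treated Empty one, EIF2S2 alone was called. EIF2AK1, which encodes HRI, was at 162 and 161 CPM in untreated and 158 and 166 in treated Empty, and at 149 and 141 against 141 and 133 in NeuT. Its groups overlapped in Empty, and the log2 fold change was -0.04 ± 0.04 (edgeR adjusted p = 0.736).

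No gene of the heat shock list was called. Of its 22 tested members none passed the edgeR threshold, 2 were higher and 3 lower at an unadjusted p under 0.05, DESeq2 called 1 in each direction and limma-voom none. Here and below, list counts at an unadjusted p are given without the share of all genes tested that met it. They describe the lists only. HSPA8, the constitutive cytosolic Hsp70, was at 3436 and 3372 CPM in untreated Empty, 3244 and 3205 in treated Empty, 3520 and 3466 in untreated NeuT and 3200 and 3004 in treated NeuT. Treated libraries were lower within each line, by 0.12 ± 0.04 on the log2 scale, which was not past the threshold (edgeR adjusted p = 0.0881). Without a filter on low counts it was called, as it was by DESeq2 (adjusted p of 0.0363 and 0.0377). BAG3, the cochaperone of the study's title, had a log2 fold change of -0.09 ± 0.04 (edgeR adjusted p = 0.274) and the Hsp40 gene DNAJB1 one of 0.08 ± 0.04 (edgeR adjusted p = 0.38). Among 20 genes for Hsp70, Hsp110 and BAG proteins edgeR called none (2 higher and 4 lower at an unadjusted p under 0.05), with 1 lower by DESeq2 and none by limma-voom. In each of these 2 lists edgeR called 1 gene higher and 1 lower without the filter, and 1 higher with a coefficient for each group.

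Genes that answer to unfolded proteins in the endoplasmic reticulum (ER) moved in both directions, with 2 of 29 higher and 3 lower. XBP1, its main splicing-controlled factor, rose by 0.44 ± 0.06 (edgeR adjusted p = 0.0014), and HERPUD1, a part of ER-linked degradation, by 0.53 ± 0.08 (edgeR adjusted p = 0.0039). Both were called in every one of the 8 refits that left out a library. The ER folding genes PDIA4, SDF2L1 and CRELD2 fell by 0.19, 0.23 and 0.20 (edgeR adjusted p of 0.0150, 0.0171 and 0.0227). None of the 3 was called without the first untreated Empty or either untreated NeuT library (edgeR adjusted p of 0.0518 to 0.128). SDF2L1 also lost its call without the second untreated Empty library and CRELD2 without the second treated one (edgeR adjusted p of 0.051 and 0.0528). The count of lower calls was 5 with DESeq2, without the filter or with a coefficient for each group. The remaining 24 of 29 were not called, among them HSPA5, the ER Hsp70, at -0.07 ± 0.04 (edgeR adjusted p = 0.487).

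Of 22 genes of the NRF2 oxidative stress response, edgeR called HMOX1 alone. The count was 3 without the second treated NeuT library, with DESeq2 or with a coefficient for each group, and 2 with limma-voom, without robust estimation or without the filter. This haem oxygenase was at 11.7 and 10.8 CPM in untreated and 16.7 and 16.8 in treated Empty, and at 15.4 and 15.0 against 21.5 and 25.2 in NeuT. The change was nearly the same in both lines (0.57 and 0.62, shared 0.60 ± 0.07, edgeR adjusted p = 1.2e-04). Among 23 autophagy genes 2 rose, MAP1LC3B by 0.41 ± 0.07 (edgeR adjusted p = 0.0047) and GABARAPL1 by 0.29 ± 0.07 (edgeR adjusted p = 0.0353), both coding for ATG8 proteins of the autophagosome. GABARAPL1 lost its call without the first untreated Empty, first treated Empty, either untreated NeuT or first treated NeuT library (edgeR adjusted p of 0.0554 to 0.181). Without the filter on low counts 5 autophagy genes were called. EdgeR called none of 31 proteasome genes (4 lower at an unadjusted p under 0.05), 23 cholesterol genes (6 lower), 67 ribosomal protein genes (2 higher), 31 ribosome biogenesis genes (7 lower), 43 nuclear respiratory chain genes (none), 25 interferon-stimulated genes (3 higher, 2 lower) or 7 metallothionein and zinc genes (1 each way). In these lists DESeq2 called 1 cholesterol gene and 1 ribosome biogenesis gene lower and 1 metallothionein gene in each direction, and limma-voom none. Without the filter on low counts edgeR called 2 cholesterol genes and 1 ribosome biogenesis gene lower and 1 metallothionein gene in each direction, and with a coefficient for each group 2 cholesterol genes lower. Without the second treated NeuT library edgeR called 3 ribosomal protein genes, 1 respiratory chain gene, 1 metallothionein and 1 Hsp70 or BAG gene higher and 1 ribosome biogenesis gene lower. Without the second treated Empty library it called 1 cholesterol gene lower, without the first 1 metallothionein gene lower, and without the second untreated NeuT library 1 metallothionein gene higher.

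Of 18 cytokine genes and other NF-κB targets, 7 rose and none fell (median log2 0.38, and 0.24 without the second treated NeuT library). IL1A, an alarmin cytokine, was at 2.54 and 2.49 CPM in untreated Empty and 6.69 and 5.44 in treated Empty, against 89.9 and 81.7 in untreated and 160 and 213 in treated NeuT. The lines did not overlap, yet the relative change was alike, 1.25 in Empty and 1.12 in NeuT (shared 1.15 ± 0.10, edgeR adjusted p = 1.6e-04). The chemokine genes CCL20 and CXCL2 rose by 0.49 and 0.48, and CSF3, which encodes the granulocyte growth factor G-CSF, by 1.10 (edgeR adjusted p of 7.0e-04, 0.0047 and 0.0015). The count of 7 was 4 without the first untreated NeuT library and 12 without the first treated one. It was 11 without the filter on low counts. IL1B, another of the 7, named after its values were seen, had an edgeR adjusted p of 0.0499. With a library left out it was called only without the first treated NeuT one (edgeR adjusted p of 0.0631 to 0.318 otherwise), and it was not called by DESeq2 or limma-voom (adjusted p of 0.365 and 0.058). EdgeR did not call it with RLE size factors, without robust estimation or with a coefficient for each group (adjusted p of 0.0548, 0.0638 and 0.262). Of 21 immediate early and AP-1 genes, 7 rose and none fell (median log2 0.19). The phosphatase gene DUSP1 rose by 0.28 ± 0.04 (edgeR adjusted p = 0.0014), and the growth factor antagonist SPRY2 by 0.29, JUNB by 0.21 and KLF6 by 0.19. SPRY2 and JUNB lost their calls without either untreated NeuT library (edgeR adjusted p of 0.0546 to 0.0728), and KLF6 without any library but the treated NeuT ones (edgeR adjusted p of 0.0642 to 0.13). Without either untreated NeuT library 1 of these 21 genes was called. The count was 3 or 4 without either untreated Empty library or the first treated one.

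Among the rises with the smallest p-values were 4 genes outside the lists. SMOX, which oxidises spermine, went from 21.2 and 19.4 to 31.2 and 28.2 CPM in Empty and from 42.4 and 45.1 to 61.0 and 71.2 in NeuT. Its change was 0.57 ± 0.06 (edgeR adjusted p = 6.7e-05). ERRFI1, a feedback inhibitor of epidermal growth factor receptors, was at 152 and 146 CPM in untreated and 189 and 184 in treated Empty, and at 226 and 225 against 308 and 325 in NeuT (0.41 ± 0.04, edgeR adjusted p = 7.7e-05). TSC22D3, the glucocorticoid-induced leucine zipper gene, rose by 0.54 and DUSP10, a phosphatase of p38 and JNK, by 0.72 (edgeR adjusted p = 7.7e-05 for each). These 4 calls held in all 8 refits that left out a library.

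In the genes that rose, the p53 list overlapped with the ISR lists throughout, and the BCL2 list only in PMAIP1. Of 22 p53 targets 4 rose, PMAIP1, SESN2, GDF15 and GADD45A, and all are also in the ISR lists. CDKN1A, the cell cycle inhibitor p21, named after its values were seen, had a log2 fold change of 0.13 and was not called by edgeR (adjusted p = 0.0696), but was by DESeq2 (adjusted p = 0.0269). DESeq2 called 6 of the p53 targets. Of 20 genes of the BCL2 family and death receptors 3 rose, PMAIP1 and the anti-apoptotic BCL2L2 (0.27) and BCL2L1 (0.19). Without the second untreated Empty, the first treated Empty or either untreated NeuT library 1 gene was called in each of these 2 lists. The p53 count was 2 without the first treated NeuT library. BCL2L1 also lost its call without the second treated Empty library (edgeR adjusted p = 0.0643), and 43.0% of its exonic length is shared with another gene. Of 15 transcripts that host small nucleolar RNAs 4 rose, GAS5, SNHG8, SNHG5 and EPB41L4A-AS1, by 0.24 to 0.34 (edgeR adjusted p of 0.0028 to 0.0378). Another gene shares 39.6% of the exonic length of SNHG8 and 56.4% of that of EPB41L4A-AS1. Such noncoding hosts are known to be degraded during translation. Their count was 1 without the first untreated NeuT library and 2 without the second or without an untreated or the first treated Empty library.

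Of 31 DNA replication genes, 16 fell and none rose (median log2 -0.22 against -0.0017 for all genes), and all 31 estimates were negative. The list has 27 members lower at an unadjusted p under 0.05. The helicase subunit MCM6 was at 178 and 175 CPM in untreated Empty and 149 and 147 in treated Empty. In NeuT it was at 105 and 105 CPM without and 95.2 and 82.5 with the drug. Treated cells were lower in each line, although untreated NeuT lay below treated Empty, and the shared fall was 1.19-fold (log2 -0.25 ± 0.04, edgeR adjusted p = 0.0059).

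The related helicase subunits MCM2 and MCM4 fell by 0.23 and 0.25 and the origin-binding factor ORC1 by 0.38 (edgeR adjusted p of 0.0050, 0.0047 and 0.0052). For MCM2 the levels were 141 and 134 against 112 and 119 CPM in Empty, and 70.0 and 68.4 against 60.5 and 58.4 CPM in NeuT. Its groups did not overlap within a line, and 23.6% of its exonic length is shared with another gene. These 4 genes were called in all 8 refits that left out a library. The count of 16 was 7 and 8 without the second and first untreated NeuT library, and 9 without the first untreated or second treated Empty library.

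Of 30 mitosis genes, edgeR called 1, the cytokinesis scaffold gene ANLN (-0.26 ± 0.05, edgeR adjusted p = 0.0078), and the median was -0.09. At an unadjusted p under 0.05, 10 were lower. DESeq2 called 4 lower, the edgeR model with a coefficient for each group 5, and edgeR without the filter on low counts 7. The call was lost without either untreated NeuT library (edgeR adjusted p of 0.0507 to 0.0557). MKI67, the proliferation marker Ki-67, was at 286 and 325 CPM in untreated and 261 and 249 in treated Empty, but at 96.4 and 88.2 against 88.1 and 98.3 in NeuT. Its groups overlapped in NeuT, and it was not called (log2 -0.13 ± 0.06, edgeR adjusted p = 0.365). ATAD2, a bromodomain ATPase gene, and CHAF1A, a histone chaperone subunit that acts at replication forks, fell by 0.23 ± 0.04 and 0.32 ± 0.05 (edgeR adjusted p of 0.0046 and 0.0024).

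Among genes averaging 50 counts or more, the steepest falls were in nuclear copies of mitochondrial genes. All 37 genes of the mitochondrial chromosome have 0 counts in the table, so reads on these near-identical copies cannot be assigned to them with certainty. Of the 9 copies tested, 8 were called lower and none higher. Summed over the copies, the level was 539 and 609 CPM in untreated Empty and 220 and 178 in treated Empty. In NeuT it was 565 and 564 CPM without and 202 and 153 with JG-98. No treated library exceeded 220 CPM and no untreated one was below 539. MTATP6P1, which carried most of these counts, was lower by 3.33-fold (log2 -1.73 ± 0.12, edgeR adjusted p = 0.0010), and MTCO3P12 and MTND2P28 by 2.93-fold and 2.28-fold. Beside these, 3 of 26 genes for mitochondrial chaperones, proteases and transcription fell: POLRMT, the mitochondrial RNA polymerase (-0.28 ± 0.05, edgeR adjusted p = 0.0053), TWNK, the DNA helicase (-0.22 ± 0.05, edgeR adjusted p = 0.0225), and FASTKD2, an RNA-binding factor of the mitochondrial ribosome (-0.20 ± 0.05, edgeR adjusted p = 0.0282). Any link between the 2 results was not tested. POLRMT was called in all 8 refits that left out a library. TWNK lost its call without the second library of either Empty group or either untreated NeuT library (edgeR adjusted p of 0.0681 to 0.113), and FASTKD2 without these or the first untreated Empty library (edgeR adjusted p of 0.06 to 0.144).

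**Figure D5:**
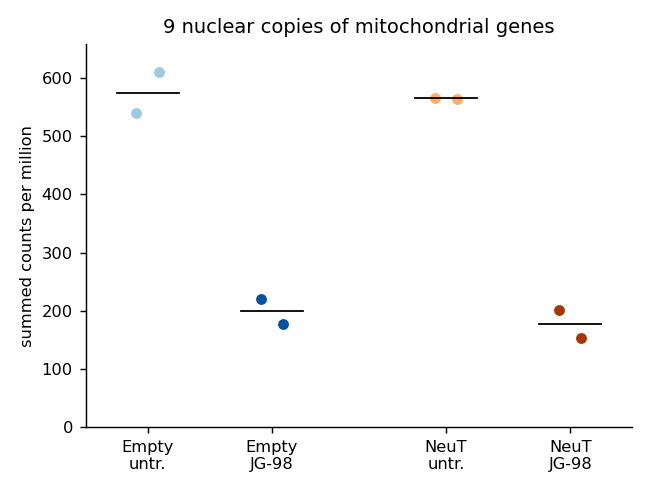
Summed level in CPM (y axis, from 0) of the 9 tested nuclear copies of mitochondrial genes in the 8 libraries, grouped on the x axis by line and treatment. Points are libraries and bars group means, and the 4 treated libraries lie between 153 and 220 against 539 to 609 for the untreated ones.

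Among single genes that fell, ARRDC4, an arrestin-like gene that limits glucose uptake, was at 21.2 and 22.3 CPM in untreated Empty and 12.0 and 10.9 in treated Empty. In NeuT it was at 21.6 and 20.7 without and 14.7 and 15.6 with the drug. The groups were apart in each line, as the choice of this gene required, with a fall of 1.621-fold (log2 -0.70 ± 0.08, edgeR adjusted p = 2.2e-04). Its relative TXNIP went opposite ways in the 2 lines, -0.58 in Empty and 0.22 in NeuT, and had no call for the shared effect (edgeR adjusted p = 0.734), although the model with a coefficient for each group called it lower (edgeR adjusted p = 0.0114). Of 23 glycolysis and glucose uptake genes 2 fell, PFKFB3 by 0.31 and PFKFB4 by 0.49, which set the level of an activator of glycolysis. Without the filter on low counts 4 were called lower. At an unadjusted p under 0.05, 12 of the 23 were lower and 1 higher. Both lost their calls without either untreated NeuT library (edgeR adjusted p of 0.0528 to 0.0856), and PFKFB4 also without the second untreated or first treated Empty library (edgeR adjusted p of 0.066 and 0.0714).

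PLOD2, a collagen lysyl hydroxylase, fell from 297 and 307 to 233 and 235 CPM in Empty and from 483 and 481 to 416 and 375 in NeuT (log2 -0.33 ± 0.04, edgeR adjusted p = 3.7e-04). BNIP3, a mitophagy receptor, fell from 59.4 and 62.1 to 47.5 and 46.2 CPM in Empty and from 150 and 151 to 132 and 109 in NeuT (-0.35 ± 0.05, edgeR adjusted p = 0.0018). Both are known hypoxia-inducible genes, and their groups were apart in each line, as the choice of these genes required. IRS1, an adaptor of the insulin receptor, fell by 0.35 ± 0.05 (edgeR adjusted p = 0.0010), and LFNG, a sugar transferase that modifies Notch, by 0.46 ± 0.07 (edgeR adjusted p = 0.0023).

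Among the other large falls, most were in genes at low levels. TCAF2, a regulator of a TRP channel, fell by 0.71 ± 0.12 (edgeR adjusted p = 0.0033), METTL25 by 0.60 ± 0.12 (edgeR adjusted p = 0.0117) and FAM222A by 0.58 ± 0.11 (edgeR adjusted p = 0.0070). The call of METTL25 was lost without the second untreated NeuT library (edgeR adjusted p = 0.0723), while TCAF2 and FAM222A were called in all 8 refits. MAP2K6, a kinase that activates p38, the noncoding FER1L4, the hormone gene STC1 and the growth factor gene BMP4 had log2 fold changes of -0.78, -0.75, -0.72 and -0.63. Each was called with all libraries (edgeR adjusted p of 0.0271 to 0.0353) and lost its call in most refits. MAP2K6 was not called without any library of Empty but the first untreated one or without either untreated NeuT library (edgeR adjusted p of 0.0585 to 0.112). FER1L4 was called only without the first treated library of a line (edgeR adjusted p of 0.0638 to 0.143 otherwise). STC1 lost its call without the first untreated or second treated Empty library or any NeuT library but the first treated (edgeR adjusted p of 0.0545 to 0.0885). BMP4 lost it without the second library of either Empty group or any NeuT library (edgeR adjusted p of 0.054 to 0.13).

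The additive model also found genes that neither line gave alone, 86 rises and 98 falls. APOL6, an apolipoprotein L gene, was at 73.6 and 78.0 CPM in untreated and 90.8 and 88.1 in treated Empty, and at 109 and 109 against 125 and 126 in NeuT. The shift was small and alike in both lines (0.24 and 0.21, shared 0.22 ± 0.04, edgeR adjusted p = 0.0054), and the groups did not overlap. NECTIN4, a cell adhesion gene, rose by 0.40 ± 0.07 (edgeR adjusted p = 0.0065) and the noncoding LINC00680 by 0.71 ± 0.13 (edgeR adjusted p = 0.0068). Together with ATAD2, MCM2 and MCM6 these were the 6 genes of this kind with the smallest p-values. At the other end, the 6 called genes with the smallest p for a difference between lines were GDF15, CTH, DDIT3, SLC6A9, OSR1 and LINC01138. In each the change was larger in NeuT, for example 1.33 in Empty and 2.60 in NeuT for DDIT3 and 0.77 and 1.63 for SLC6A9. OSR1, a zinc finger factor, had values of -0.14 in Empty and -0.68 in NeuT. For none of the 6 was the difference past the threshold (edgeR adjusted p of 0.122 to 0.349). The shared call of OSR1 was lost without the first treated Empty, either untreated NeuT or first treated NeuT library (edgeR adjusted p of 0.0593 to 0.115).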

How the data were processed

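Poly(A)-selected RNA of 8 libraries was sequenced. The authors deposited raw counts per gene, in the layout featureCounts writes, per the file headers. The submitters' processing notes name Trim Galore 0.5.0, FastQC 0.11.7, HISAT2 2.1.0, SAMtools 1.9, featureCounts 1.6.3, limma and the builds hg38 and GRCh38. The annotation release, strand setting and handling of multi-mapping reads are not given in the sources used here, so overlapping genes cannot be fully told apart. The authors' own comparisons were not used here. The number of columns matched to no sample was 0.

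Counts were fitted with edgeR 4.0.16 in R 4.3.3 (filterByExpr with a minimum count of 10, TMM scaling, robust quasi-likelihood, line plus drug). Line contrasts and the difference between lines came from a model with 1 coefficient per group. P-values were adjusted by Benjamini-Hochberg. A standard error is the log2 fold change divided by the square root of F. CPM values are TMM-scaled, except the summed mitochondrial copies, which are per total count. A count of 0 allows up to 3 counts, 0.0528 to 0.0803 CPM, from counting error alone. The gap between replicates exceeded sampling noise in each group (chi-square per gene 4.52 to 22), so no library was merged with another. Replicate numbers did not pair the libraries within a line (correlations of deviations of 0.0621 in Empty and -0.101 in NeuT), so they were treated as unpaired. The largest correlation, 0.244, was between the treated groups of the 2 lines. Gene names matched 60261 of 60617 identifiers.

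The members, gene lists and rules were chosen with earlier results of these data known. Among called genes averaging 50 counts or more, the 8 largest changes and 6 smallest p-values in each direction were named (the mitochondrial copies apart). Only genes whose treated and untreated libraries did not overlap in either line could enter these places, so their separation was fixed by the choice. Under the same count limit, 6 called in neither line and 6 with the smallest interaction p were added. A panel of 20 genes was named whether called or not. The called list members with the smallest p were named too. Alternatives were tried with DESeq2 1.42.0, limma 3.58.1 (voom) and other scalings and filters. A test on simulated counts of 17321 genes recovered 81 of 100 genes changed by 0.5 and 98 of 100 changed by 1 on the log2 scale. It gave 18 false calls, and 4 calls of a line difference that was not simulated. The changed genes averaged 50 counts or more, changed alike in both lines and had the same spread in all groups. The test thus does not measure performance at the uneven replicate spread of these libraries. Other list members are given by counts, and 1 was left out of the plot of its list.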

Additional observations from a re-analysis of the deposited data

Results flagged for a closer look

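TXNIP, an arrestin-like gene that limits glucose uptake and binds thioredoxin, was the gene whose drug effect differed between the lines past the threshold. It went from 149 and 154 to 103 and 100 CPM in Empty and from 432 and 415 to 478 and 508 CPM in NeuT. The difference between the lines was 0.80 ± 0.08 on the log2 scale (edgeR interaction test, adjusted p = 1.8e-04), with both libraries of each treated group moving the same way.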

How the results depend on the processing

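The shared effect was called for 520 genes (314 higher, 206 lower), and for 1007 (571 and 436) without a filter on low counts, 831 (462 and 369) with DESeq2, and 212 (151 and 61) at an adjusted p-value under 0.01. When edgeR tested each change against a minimum of 0.5 on the log2 scale, 16 genes (10 and 6) were called. Of the 520, 101 rises and 21 falls had estimates beyond 0.5. Leaving out 1 library gave 196 to 709 genes, 135 to 389 higher and 56 to 320 lower. Other scalings, a stricter filter and limma-voom kept the count within 1.5 times. The difference between lines was called for 1 gene, and for 2 with total counts, 3 without robust estimation, 26 with DESeq2, 138 without the filter, and 1 to 777 with 1 library left out. With the replicate number as a block within each line (replicate block) 397 genes were called for the shared effect (251 higher, 146 lower) and 15 for the difference. Under this replicate block BMP4, CRELD2, CTH, FASTKD2, FER1L4, GABARAPL1, GDF15, IL1B, KCNJ12, NFIL3, OSR1, SLC38A2, SLC6A9 and TWNK were not called (edgeR adjusted p of 0.0502 to 0.115), 2 amino acid transporters and 1 autophagy gene were called higher, and 1 mitochondrial chaperone or transcription gene lower. Other list members that lost their calls there included the replication genes MCM7, ORC6, POLA2 and RFC5. The amino acid synthesis gene GOT1 and the AP-1 gene JUND did too (edgeR adjusted p of 0.0556 to 0.0767 for these genes). Because the replicate deviations of untreated and treated NeuT had a weak negative correlation (-0.101), a crossed pairing in NeuT was added after seeing the data. It called 528 genes. None of the 151 genes recomputed under the alternatives changed sign, while the medians of the interferon, metallothionein, respiratory chain and eIF2α lists, which lie near 0, did in some. The cause of these changes was not tested, but a fit without a library has fewer samples. It also leaves 1 library in that group, which then adds nothing to the measured spread. With 2 libraries a group, an exact permutation test of 1 gene within a line cannot reach 0.05, so the calls within a line rest on the spread shared across genes. The calls for the shared effect compare 4 libraries a side and draw on that spread too.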
